A study of Mus musculus with 44 samples.

Results

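The protein phosphatase genes, which encode the enzymes that take phosphate off serine and threonine and the subunits that steer them, were examined in RNA bound to the ribosomes of Crh neurons of the mouse amygdala. The members were chosen by name alone, as every gene whose symbol is Ppp followed by a digit from 1 to 6, except Ppp1r1a and Ppp1r1b. This gave 52 of the 8203 genes measured. They comprise 3 catalytic and 22 regulatory subunits of protein phosphatase 1 (PP1), 2 catalytic subunits, 1 scaffold subunit and 12 B subunits of protein phosphatase 2A (PP2A), 4 subunits of calcineurin, and 8 subunits of PP4, PP5 and PP6. Every one had passed the authors' filter on low values in the 44 mice, and the smallest count of any gene in any mouse was 28 reads. Subunits below that filter are not in the table and were not analysed here.

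Each mouse carried both the Crh-Cre driver and a Cre-dependent eGFP-L10a allele, and was a heterozygous animal of the first generation, 10 to 16 weeks old by the methods. Tagged ribosomes were pulled down with an antibody against GFP from amygdala punches. The capture is therefore limited to cells in which the Crh promoter has driven Cre. Tone alone (TA) mice heard 5 tones of 30 s (n = 16, 10 males and 6 females). Fear conditioning (FC) mice received 5 tones that each ended with a shock of 0.65 mA (n = 12, 6 males and 6 females). Extinction (EXT) mice were fear conditioned in the same way and on the next day heard 30 tones without shock in another context (n = 16, 10 males and 6 females). All mice were killed 2 h after their last session.

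PP1 and PP2A carry out much of the serine and threonine dephosphorylation in a neuron. Their few catalytic subunits act through many partners: a regulatory subunit brings PP1 to a place such as the dendritic spine, glycogen or the nucleus, and a B subunit joins a PP2A core of catalytic and scaffold subunits to choose its substrates. Calcineurin, or PP2B, is switched on by calcium and calmodulin, and is known for its part in synaptic depression. These enzymes oppose kinases such as PKA and CaMKII, which is why they are often studied in learning and in the extinction of fear.

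PKA acts on transcription through CREB, which binds the cAMP response element, so the letters of that element were looked for in the promoters of the members. RefSeq promoters on build GRCm38.p6, running from 250 bases before to 50 bases after each start, were at hand for 42 of the 52 members, with 52 promoters between them. The full element, TGACGTCA on either strand, was present in 5 of these 52 promoters (9.62%), which belong to 4 genes. It was present in 3.34% of the promoters of the genes in the table and in 1.79% of all promoters. The promoters of Ppp2r2d overlap and hold the same site, which is thus counted more than once. Counted by gene, the element was in 4 of 42 members (9.52%). It was in 4.07% of the genes of the table that have a promoter and in 2.03% of all genes with one. The 4 genes are Ppp2r2d, whose product is a B subunit of PP2A, Ppp2ca, the main catalytic subunit of PP2A, Ppp1r15a (GADD34), which brings PP1 to the translation factor eIF2 alpha, and Ppp1r12c, a myosin phosphatase targeting subunit. The stretches upstream of their starts are shown because they hold the element, given in capitals, 5′ to 3′ on the strand of the gene. They lie at chr7:138846312-138846358 on the plus strand for Ppp2r2d, chr11:52098772-52098823 on the plus strand for Ppp2ca, chr7:45526269-45526306 on the minus strand for Ppp1r15a and chr7:4501716-4501775 on the minus strand for Ppp1r12c.
Ppp2r2d: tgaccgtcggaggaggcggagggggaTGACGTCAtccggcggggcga
Ppp2ca: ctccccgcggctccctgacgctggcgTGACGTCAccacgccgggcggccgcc
Ppp1r15a: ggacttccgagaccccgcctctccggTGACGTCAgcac
Ppp1r12c: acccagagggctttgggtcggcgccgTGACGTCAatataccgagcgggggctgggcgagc

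The element ends 4 bases before the start of Ppp1r15a, 13 before the nearer start of Ppp2r2d, 18 before that of Ppp2ca and 61 before that of Ppp1r12c. The shorter TGACG, which lies within the full element and was counted wherever it occurred on either strand, was in 25 of the 52 promoters (48.1%), against 33.0% for the genes of the table and 20.8% of all promoters. The AP-1 letters TGANTCA, bound by Fos and Jun proteins, were in 0 of the 52, against 4.44% and 7.81%. A match of letters does not show that a factor binds there. Of the 4 genes with the full element, Ppp2r2d alone passed the test between groups described below.

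Levels between genes were compared per length, as log2 cpm per kilobase of exon, over all 44 mice. The highest member per length was Ppp1ca, the alpha catalytic subunit of PP1, at 8.07 ± 0.31 (SD, n = 44). It was followed by Ppp3r1, the calcium-binding B subunit of calcineurin, at 7.84, Ppp2r1a, the PP2A scaffold, at 7.42, and Ppp2ca at 7.02. Ppp1ca and Ppp3r1 lay closer together than their SDs. The other PP1 catalytic subunits were lower, with Ppp1cc at 5.14 and Ppp1cb at 4.93. Among the catalytic subunits of calcineurin, Ppp3ca stood at 6.41, Ppp3cb at 4.40 and Ppp3cc at 3.64. Ppp2cb, the other PP2A catalytic subunit, was at 6.35, Ppp5c at 5.67, Ppp4c at 4.83 and Ppp6c at 4.25. Of the regulatory subunits of PP1, the inhibitors Ppp1r11 (inhibitor-3) and Ppp1r2 (inhibitor-2) were highest, at 6.98 and 6.54. The most abundant B subunits of PP2A per length were Ppp2r5b, of the B56 family, at 6.37 and Ppp2r2b, of the B55 family, at 6.16. The lowest members were the pseudogene Ppp4r1l-ps at 0.64, Ppp2r3a, a B'' subunit of PP2A, at 0.81 and Ppp6r2, a PP6 subunit, at 1.14. The length of a gene was that of all its annotated exons merged, so the order depends on the annotation. Without division by length, Ppp2ca (9.92 log2 cpm), Ppp3ca (9.73) and Ppp3r1 (9.53) lay above Ppp1ca (9.40). Exons of genes that overlap others were counted in full. Of the exon bases, 39.9% in Ppp2ca, 29.2% in Ppp1r14c, 17.5% in Ppp1cb and 14.3% in Ppp3r1 also belong to another annotated gene. Ppp4r1l-ps resembles a coding gene, so that its reads are uncertain.

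**Figure D1:**
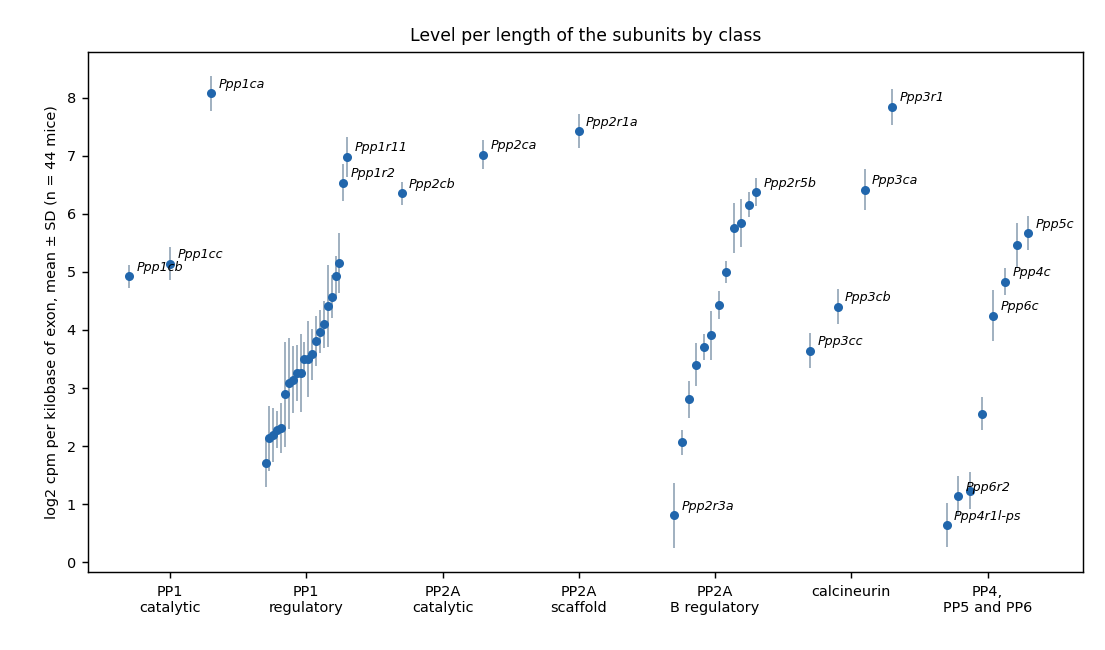
Level of each subunit as log2 cpm per kilobase of exon (vertical axis), grouped by phosphatase class (horizontal axis). Points are means and lines are ± SD over 44 mice. Ppp1ca at 8.07 and Ppp3r1 at 7.84 stand highest, and the regulatory classes spread down to 0.64 for Ppp4r1l-ps.

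A set of EXT libraries stood apart before any comparison of subunits. The mice were processed in 5 batches, and batches 3 and 4 hold 6 EXT mice and no other mice, so that in them batch cannot be told apart from condition. These 6 libraries had a summed level of 8 mitochondrial transcripts and Malat1 of 6732 to 44061 cpm, with a median of 31284. The TA mice had 124 to 4675 cpm, with a median of 926, and the 10 other EXT mice had a median of 852. Among those 10, mouse 21 of batch 2 reached 33373 cpm and mouse 28 of batch 1 reached 5485, both above every TA mouse. The FC mice had 385 to 10293 cpm, with a median of 1103. FC mice 18 and 19 of batch 1, at 10293 and 9361 cpm, exceeded the lowest of the 6 libraries. Effective library sizes were 14649837 to 20440351 reads in TA, 13431032 to 19257786 in FC and 12802113 to 17805609 in EXT mice. The oligodendrocyte markers (7 of 8 in the table) summed to 4223 to 13411 cpm in the 6 EXT mice and 1416 to 6379 in TA. The astrocyte markers (8 of 8) summed to 1853 to 3369 and 651 to 2591 cpm in the same groups. The 10 markers of central amygdala neurons, Crh among them, were all present and summed to 897 to 2386 cpm in the 6 mice and 2438 to 7130 in TA, so that these ranges did not overlap. Of the GABAergic markers 3 of 4 are in the table, and Slc32a1 is not. The GABA-synthesising enzymes Gad1 and Gad2 were lower in EXT than in TA, with log2 fold changes of -0.61 (FDR-adjusted p = 0.013) and -0.27 (FDR-adjusted p = 0.026). Glutamatergic markers (2 of 6) summed to 52.5 to 323 cpm in the 6 mice, with a median of 202, and 40.4 to 233 in TA, with a median of 78.7. Choroid plexus markers (4 of 8) summed to 234 to 3196 cpm, with a median of 1054, and 187 to 27465 in TA, with a median of 6543. The part of these cell types in the differences of the subunits was not tested. Only 1 of 8 microglial and 1 of 6 endothelial markers is in the table. The part of these libraries in the results is given below as values with and without them.

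Batch took up a large share of the variance of the phosphatase subunits, as it did for the genes at large. The median share of variance lying between batches was 42.6% for the 52 members, with a range from 2.53% to 79.6%, and 41.5% for all genes. The highest shares were those of Ppp6c, the catalytic subunit of PP6, at 79.6%, Ppp2ca at 77.6% and Ppp1r11 at 74.7%. The lowest was that of Ppp1r37, a PP1 regulatory subunit, at 2.53%.

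The comparison of EXT with TA asks which phosphatase subunits differed on ribosomes after extinction. EXT mice also had shocks, a further day and another context, and these cannot be told apart from extinction here. With batch entered as a number, 13 of the 52 members passed FDR correction (25.0%), and 21.4% of all genes did. Of these members, 9 were higher in EXT (10.4% of all genes were) and 4 were lower (11% of all genes). Before adjustment, 20 of 52 were under p = 0.05, against 37.8% of all genes. The share of members that differed was thus near that of the genes at large. The median log2 fold change was 0.07 over the members and 0.01 over all genes. With batches as categories, which uses only differences inside batches 1, 2 and 5, 0 of the 52 members passed FDR correction by limma (0.0244% of all genes did), and 9 were under p = 0.05 before adjustment, against 21.1% of all genes. Each of the 13 kept its direction in that fit, with a smaller fold change, and 7 were under p = 0.05 before adjustment. Without the 6 EXT mice of batches 3 and 4, 0 of 52 passed (0.0366% of all genes), and 9 were under p = 0.05 before adjustment (18.8% of all genes). None of the 13 had EXT values that were all above or all below those of TA. In bulk RNA of this kind, fewer cells of a type and less RNA per cell cannot be told apart.

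**Figure D2:**
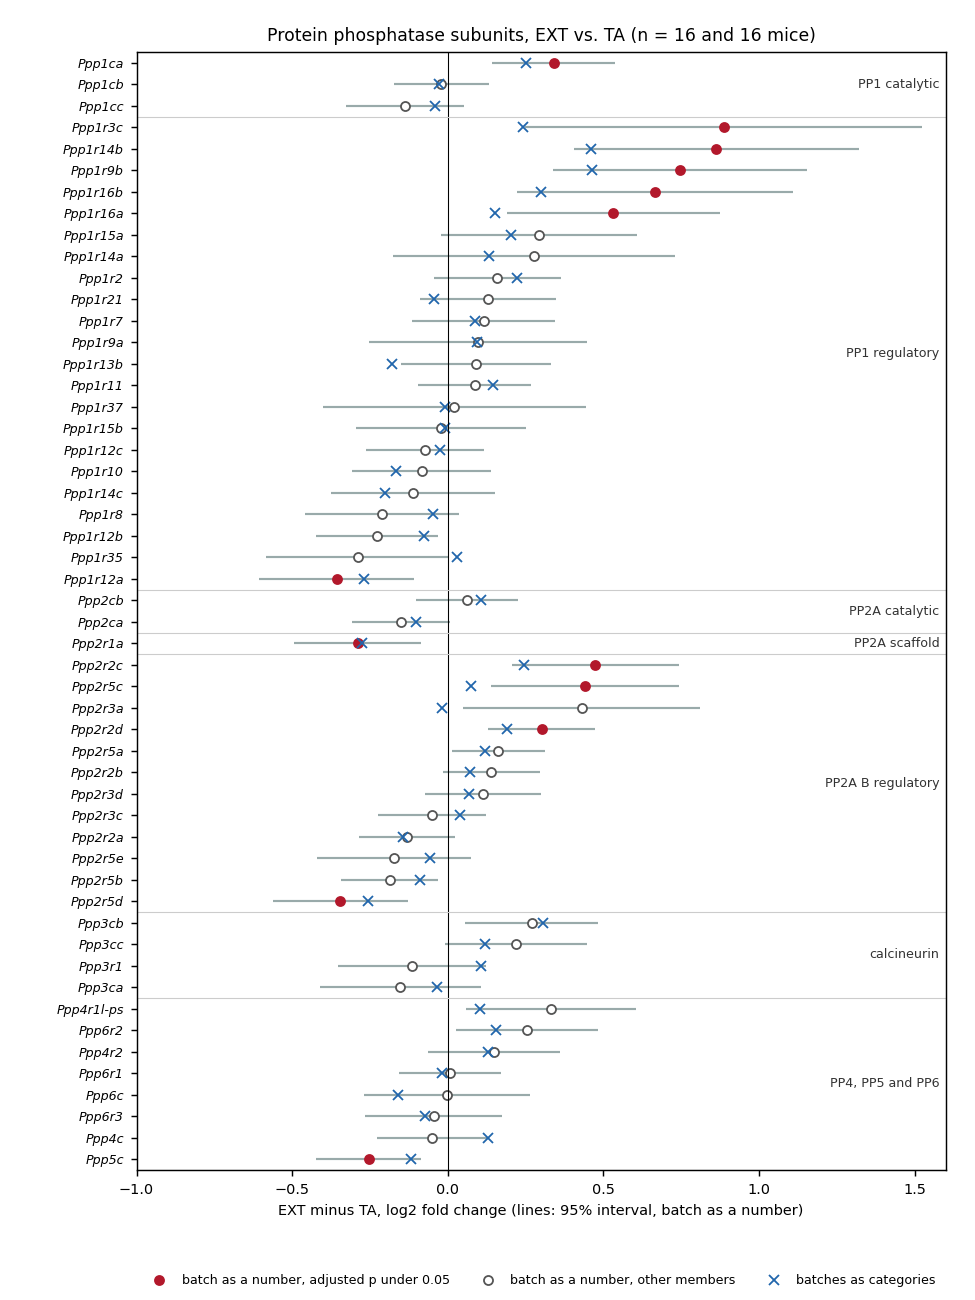
Log2 fold change of EXT vs. TA (horizontal axis) for each of the 52 subunits, grouped by class (n = 16 and 16 mice). Circles are the fit with batch as a number with its 95% interval, filled for the 13 members that passed FDR correction, and crosses are the fit with batches as categories. The crosses of all 13 lie nearer 0 than their circles.

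Of the 11 catalytic subunits, Ppp1ca was higher and Ppp5c was lower in EXT, and the others did not pass. Ppp1ca (chr19:4192065-4195420) lay between 8.91 and 9.45 log2 cpm in TA mice, with a median of 9.25. In FC mice it ran from 8.82 to 9.74 with a median of 9.47, and in EXT mice from 9.02 to 10.17 with a median of 9.55. The groups overlapped, but 13 of 16 EXT mice were above the TA median, and 5 of the 6 mice of batches 3 and 4 and 5 of the 10 other EXT mice exceeded every TA mouse. The log2 fold change of EXT vs. TA was 0.34 ± 0.097 (SE; FDR-adjusted p = 0.018), and 0.25 with batches as categories (unadjusted p = 0.025). EXT minus TA was 0.46, 0.23 and 0.18 in batches 1, 2 and 5, and 0.02 in batch 2 without mouse 21, which leaves 2 EXT mice there. Without the mice of batches 3 and 4 and mouse 21, the log2 fold change was 0.21 (unadjusted p = 0.042). Exons of Ppp1ca share 8.93% of their bases with Rad9a on the other strand.

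Ppp5c (chr7:17004640-17027924), a phosphatase that works with the chaperone Hsp90, ran from 7.15 to 7.84 log2 cpm in TA (median 7.35), and from 6.70 to 7.85 in EXT, with a median of 7.17. The groups overlapped, and 13 of 16 EXT mice were below the TA median. EXT vs. TA gave a log2 fold change of -0.25 ± 0.083 (FDR-adjusted p = 0.030), and -0.12 with batches as categories (unadjusted p = 0.13). In batch 2 the EXT mice were 0.08 above TA (0.13 without mouse 21), and in batches 1 and 5 they were 0.18 and 0.21 below. The log2 fold change without batches 3 and 4 and mouse 21 was -0.11 (unadjusted p = 0.16).

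The remaining catalytic subunits of PP1 gave -0.02 (95% interval -0.17 to 0.13) for Ppp1cb and -0.14 (-0.33 to 0.05) for Ppp1cc on the log2 scale. For those of PP2A the values were -0.15 (-0.31 to 0.01) for Ppp2ca and 0.06 (-0.10 to 0.23) for Ppp2cb. Ppp4c stood out by batch: its values in the 6 EXT mice of batches 3 and 4 (6.23 to 6.75 log2 cpm) were all below those of TA (6.77 to 7.07), whereas the other EXT mice ran from 6.79 to 7.54.

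Among calcineurin subunits, 0 of 4 passed FDR correction by limma. Ppp3cb (chr14:20499364-20546573), the beta catalytic subunit, was the member nearest to the threshold. It ran from 6.97 to 7.73 log2 cpm in TA (median 7.39), and from 6.95 to 8.31 in EXT, with a median of 7.68, and 13 of 16 EXT mice exceeded the TA median. Its log2 fold change was 0.27 ± 0.10 (FDR-adjusted p = 0.060). Unlike the 13, Ppp3cb had a larger value with batches as categories, 0.31 (unadjusted p = 0.013, FDR-adjusted p = 0.16), the smallest p of any member in that fit. Batches 1, 2 and 5 by themselves gave EXT minus TA values of 0.36, 0.16 and 0.36, and batch 2 gave 0.06 without mouse 21. Without the mice of batches 3 and 4 and mouse 21 the log2 fold change was 0.30 (unadjusted p = 0.015). The alpha subunit Ppp3ca had a log2 fold change of -0.15 (95% interval -0.41 to 0.11), and Ppp3cc had 0.22 (-0.01 to 0.45). Ppp3r1 had -0.12, but its 6 EXT mice of batches 3 and 4 averaged 9.09 and the 10 others 9.68, on either side of the TA mean of 9.57.

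Of the 22 regulatory subunits of PP1, 5 were higher in EXT and 1 was lower. Ppp1r9b (chr11:94991035-95006899) encodes spinophilin, which holds PP1 in dendritic spines. It ran from 4.71 to 6.76 log2 cpm in TA and from 5.04 to 7.30 in EXT, with medians of 5.52 and 6.43. The FC median was 5.58. The groups overlapped, and 14 of 16 EXT mice were above the TA median. The log2 fold change was 0.75 ± 0.20 (FDR-adjusted p = 0.016), and 0.46 with batches as categories (unadjusted p = 0.021). EXT was higher by 0.43, 0.66 and 0.36 in batches 1, 2 and 5, and by 0.08 in batch 2 without mouse 21. Leaving out that mouse and batches 3 and 4 gave a log2 fold change of 0.35 (unadjusted p = 0.077). Its relative Ppp1r9a (neurabin) had 0.10 (95% interval -0.25 to 0.45).

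Ppp1r14b (chr19:6974968-6977324), which encodes a small inhibitor of PP1, ran from 3.93 to 5.76 log2 cpm in TA (median 4.62), and from 4.24 to 6.84 in EXT, with a median of 5.25. In FC the range was 4.28 to 5.64 and the median 4.92. Of 16 EXT mice 14 were above the TA median, while the groups overlapped. In EXT vs. TA the log2 fold change was 0.86 ± 0.22 (FDR-adjusted p = 0.015), the smallest p of the members. It was 0.46 with batches as categories (unadjusted p = 0.037), and EXT minus TA was 0.53, 1.09 and 0.03 in batches 1, 2 and 5. In batch 2 it was 0.57 without mouse 21, and the log2 fold change was 0.30 (unadjusted p = 0.082) without that mouse and batches 3 and 4. The related inhibitors Ppp1r14a (CPI-17) and Ppp1r14c (KEPI) had 0.28 (95% interval -0.18 to 0.73) and -0.11 (-0.38 to 0.15).

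Ppp1r16a and Ppp1r16b, which encode membrane-bound targeting subunits of the myosin phosphatase family, were both higher. Ppp1r16b (chr2:158665398-158766334) ran from 5.47 to 6.84 log2 cpm in TA and from 5.24 to 7.87 in EXT, with medians of 6.15 and 6.64. Its log2 fold change was 0.67 ± 0.22 (FDR-adjusted p = 0.030), and 0.30 with batches as categories (unadjusted p = 0.17). In batch 2, EXT minus TA was 0.33, and -0.23 without mouse 21. Ppp1r16a (chr15:76671615-76694919) ran from 6.59 to 7.39 in TA and from 6.63 to 8.62 in EXT, with means of 6.99 and 7.51. Its log2 fold change was 0.53 ± 0.17 (FDR-adjusted p = 0.026), and 0.15 with batches as categories (unadjusted p = 0.27). The difference of Ppp1r16a lay largely in batches 3 and 4: those 6 mice averaged 8.14 and the 10 other EXT mice 7.12. Without those 6 mice and mouse 21, the log2 fold changes were 0.18 (unadjusted p = 0.40) for Ppp1r16b and 0.07 (unadjusted p = 0.51) for Ppp1r16a.

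Ppp1r3c (chr19:36731731-36736653) encodes a subunit that brings PP1 to glycogen, which the brain stores mainly in astrocytes. It ran from 2.20 to 4.99 log2 cpm in TA, with a median of 3.78, from 3.35 to 5.25 in FC (median 4.54), and from 3.39 to 6.37 in EXT, with a median of 4.59. The ranges overlapped, and 12 of 16 EXT mice exceeded the TA median. Its log2 fold change was 0.89 ± 0.31 (FDR-adjusted p = 0.042), and 0.24 with batches as categories (unadjusted p = 0.37). The 6 mice of batches 3 and 4 averaged 5.75 and the 10 other EXT mice 4.10, against 3.84 in TA. Without TA mouse 8, which had the value of 2.20, the log2 fold change was 0.77 and the FDR-adjusted p was 0.070. Leaving out batches 3 and 4 and mouse 21 gave a log2 fold change of 0.06 (unadjusted p = 0.82). The summed astrocyte markers had a median of 2127 cpm in the same 6 mice and 1179 in TA, with ranges that overlapped. Of the 8 markers, 1 was higher in EXT after FDR correction, Slc1a2 (0.96), and 0 were lower, while Gfap had a negative value (-0.42). The median log2 fold change of the 8 was 0.30, and -0.035 with batches as categories. Their part in the value of Ppp1r3c was not tested.

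The PP1 subunit that was lower in EXT was Ppp1r12a (chr10:108162193-108284475), which encodes MYPT1, the subunit that targets PP1 to myosin. It ran from 4.90 to 6.43 log2 cpm in TA (median 5.26), and from 4.09 to 5.73 in EXT, with a median of 4.95, and 12 of 16 EXT mice were below the TA median. The log2 fold change was -0.36 ± 0.12 (FDR-adjusted p = 0.037), and -0.27 with batches as categories (unadjusted p = 0.035). EXT minus TA was -0.44, -0.49 and -0.02 in batches 1, 2 and 5. The highest TA value was that of mouse 8: without it the log2 fold change was -0.30 (FDR-adjusted p = 0.060), which no longer passed, and batch 1 gave -0.25. Without batches 3 and 4 and mouse 21 the value was -0.26 (unadjusted p = 0.079). The related Ppp1r12b and Ppp1r12c had -0.23 (FDR-adjusted p = 0.085) and -0.07 (95% interval -0.26 to 0.12). Ppp1r35, a centrosomal protein that binds PP1, did not pass (-0.29, FDR-adjusted p = 0.14), but its 6 mice of batches 3 and 4 (3.27 to 3.76 log2 cpm) were all below TA (3.93 to 4.70). The other EXT mice, from 3.52 to 5.01, overlapped with TA.

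The PP1 subunits that act in the nucleus or on translation did not pass. NIPP1 (Ppp1r8) had a log2 fold change of -0.21 (95% interval -0.46 to 0.04) and PNUTS (Ppp1r10) had -0.08 (-0.31 to 0.14). GADD34 (Ppp1r15a) had 0.29 (-0.02 to 0.61) and CReP (Ppp1r15b), its constitutive relative, had -0.02 (-0.30 to 0.25). Inhibitor-2 (Ppp1r2) had 0.16, and 0.22 with batches as categories (unadjusted p = 0.050, just under the threshold).

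**Figure D3:**
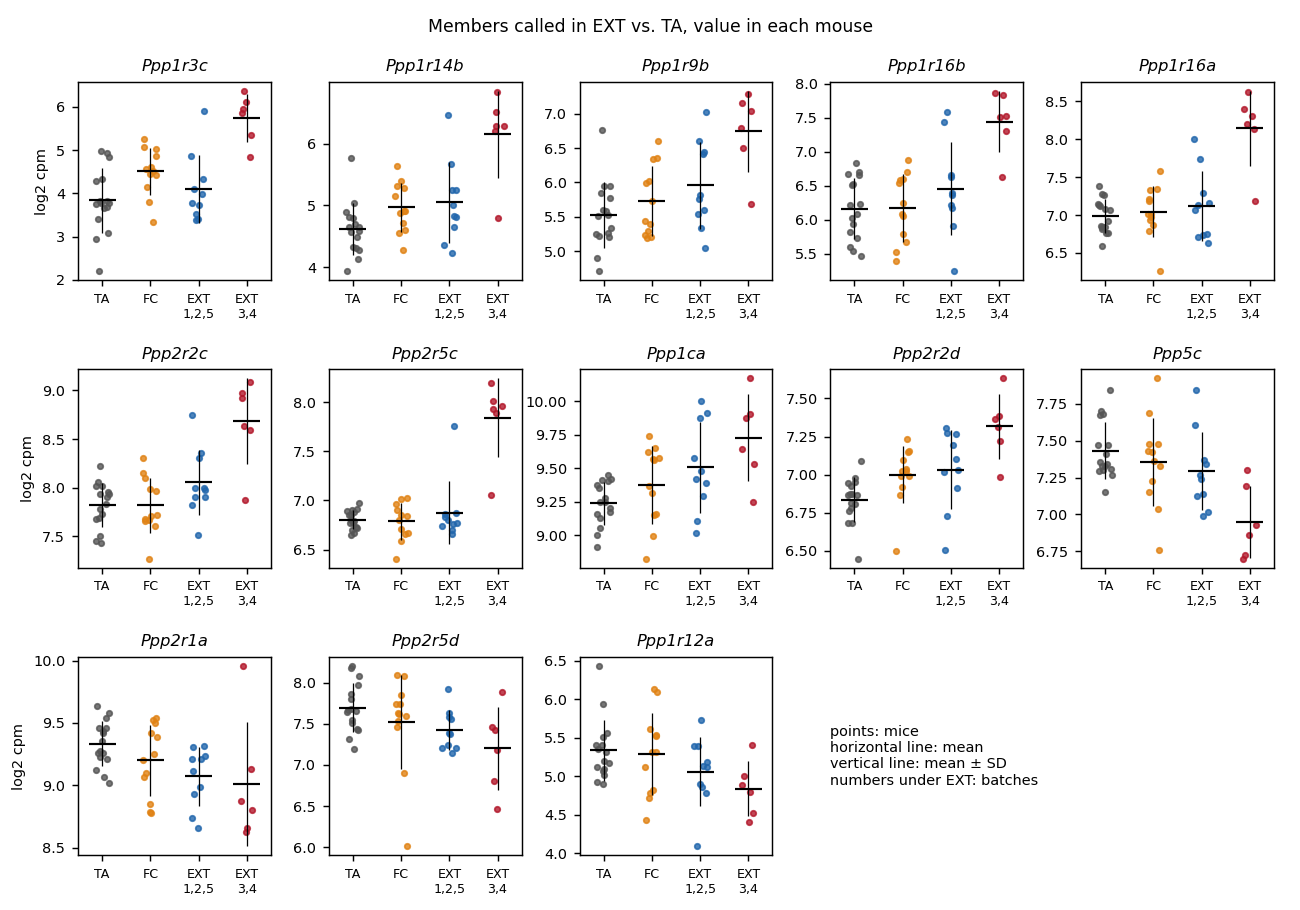
Log2 cpm (vertical axis) of the 13 subunits that passed FDR correction in EXT vs. TA, in each of 16 TA, 12 FC and 16 EXT mice, with the EXT mice split into batches 1, 2 and 5 (10 mice) and batches 3 and 4 (6 mice). Horizontal lines are means and vertical lines ± SD. In Ppp2r5c all 6 mice of batches 3 and 4 lie above every TA mouse, and in Ppp2r1a both sets of EXT mice lie at a like mean, 9.01 and 9.07.

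PP2A had 5 members among the 13: its scaffold, and 4 of its 12 B subunits. The scaffold Ppp2r1a (chr17:20945311-20965916) ran from 9.02 to 9.64 log2 cpm in TA, with a median of 9.31, from 8.77 to 9.54 in FC (median 9.22), and from 8.63 to 9.96 in EXT, with a median of 9.05. The groups overlapped, with 14 of the 16 EXT mice under the median of TA and the highest EXT mouse above all of TA. EXT vs. TA gave a log2 fold change of -0.29 ± 0.10 (FDR-adjusted p = 0.039). With batches as categories it was -0.28 (unadjusted p = 0.016), the least altered of the 13, and without the mice of batches 3 and 4 and mouse 21 it was -0.26 (unadjusted p = 0.011). Batches 1, 2 and 5 by themselves gave EXT minus TA values of -0.31, -0.51 and -0.09, and batch 2 gave -0.51 without mouse 21 too.

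The B55 subunits Ppp2r2c and Ppp2r2d were higher. Ppp2r2d (chr7:138846079-138883057), whose promoter sequence is shown above, ran from 6.45 to 7.09 log2 cpm in TA (median 6.87), and from 6.51 to 7.63 in EXT, with a median of 7.21. In FC mice the median was 7.02 and the highest value 7.23. All but 2 of the 16 EXT mice, and all but 1 of the 12 FC mice, were above the TA median, though the ranges overlapped. The log2 fold change of EXT vs. TA was 0.30 ± 0.085 (FDR-adjusted p = 0.017), and 0.19 with batches as categories (unadjusted p = 0.031). EXT minus TA was 0.21, 0.15 and 0.21 in batches 1, 2 and 5. Without mouse 21 it was 0.04 in batch 2, and leaving out batches 3 and 4 as well gave a log2 fold change of 0.16 (unadjusted p = 0.072). Ppp2r2d shares 3.30% of its exon bases with Mapk1ip1 on the other strand.

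Ppp2r2c (chr5:36868513-36955078) ran from 7.43 to 8.23 log2 cpm in TA (median 7.87), and from 7.52 to 9.09 in EXT, with a median of 8.15, and again 14 of 16 EXT mice exceeded the TA median. Its log2 fold change was 0.47 ± 0.13 (FDR-adjusted p = 0.017), and 0.24 with batches as categories (unadjusted p = 0.061). Batches 1, 2 and 5 by themselves gave EXT minus TA values of 0.15, 0.29 and 0.25, and batch 2 gave -0.06 without mouse 21. Leaving out batches 3 and 4 and that mouse gave a log2 fold change of 0.17 (unadjusted p = 0.11). The other B55 subunits had log2 fold changes of -0.13 (95% interval -0.29 to 0.02) for Ppp2r2a and 0.14 (-0.02 to 0.30) for Ppp2r2b.

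Of the B56 subunits, Ppp2r5d was lower and Ppp2r5c higher. Ppp2r5d (chr17:46682991-46705111) was at 7.20 to 8.20 log2 cpm in TA, with a median of 7.66, and 6.46 to 7.92 in EXT, with a median of 7.39. The groups overlapped, and 14 of the 16 EXT mice lay under the median of TA. EXT vs. TA gave a log2 fold change of -0.35 ± 0.11 (FDR-adjusted p = 0.024), and -0.26 with batches as categories (unadjusted p = 0.030). EXT minus TA was -0.34, -0.48 and -0.06 in batches 1, 2 and 5, and without the mice of batches 3 and 4 and mouse 21 the log2 fold change was -0.22 (unadjusted p = 0.039). Ppp2r5b had -0.19 and did not pass (FDR-adjusted p = 0.076).

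Ppp2r5c (chr12:110447120-110583062) was at 6.65 to 6.97 log2 cpm in TA, with a median of 6.79, 6.41 to 7.03 in FC, with a median of 6.82, and 6.66 to 8.20 in EXT, with a median of 6.87. The log2 fold change was 0.44 ± 0.15 (FDR-adjusted p = 0.034), and 0.07 with batches as categories (unadjusted p = 0.49). The 6 mice of batches 3 and 4, at 7.05 to 8.20, were all above TA. The other 10 averaged 6.87 beside a TA mean of 6.80, and their highest value, 7.76, was that of mouse 21. Batches 1, 2 and 5 by themselves gave EXT minus TA values of -0.09, 0.34 and -0.02, and without the mice of batches 3 and 4 and mouse 21 the log2 fold change was -0.02.

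A further B subunit, Ppp2r3a, had the same form. Its 6 mice of batches 3 and 4 (5.13 to 5.70 log2 cpm) were all above TA (3.48 to 4.97), and the 10 others averaged 4.17 against 4.21 in TA. In EXT vs. TA the log2 fold change was 0.43 (FDR-adjusted p = 0.092), and -0.02 with batches as categories. With Ppp2r5c, Ppp4c and Ppp1r35 this makes 4 of 52 members whose values in those 6 mice did not overlap with TA, where 6.17% of all genes did not. These 6 mice also had the high mitochondrial and Malat1 level given above. With log2 of that level as a covariate, the log2 fold change of Ppp2r5c was 0.08 (0.44 without the covariate) and that of Ppp2r3a -0.003 (0.43 without). For Ppp4c it was 0.06 (-0.05 without) and for Ppp1r35 0.02 (-0.29 without). Whether that level caused the values was not tested.

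**Figure D4:**
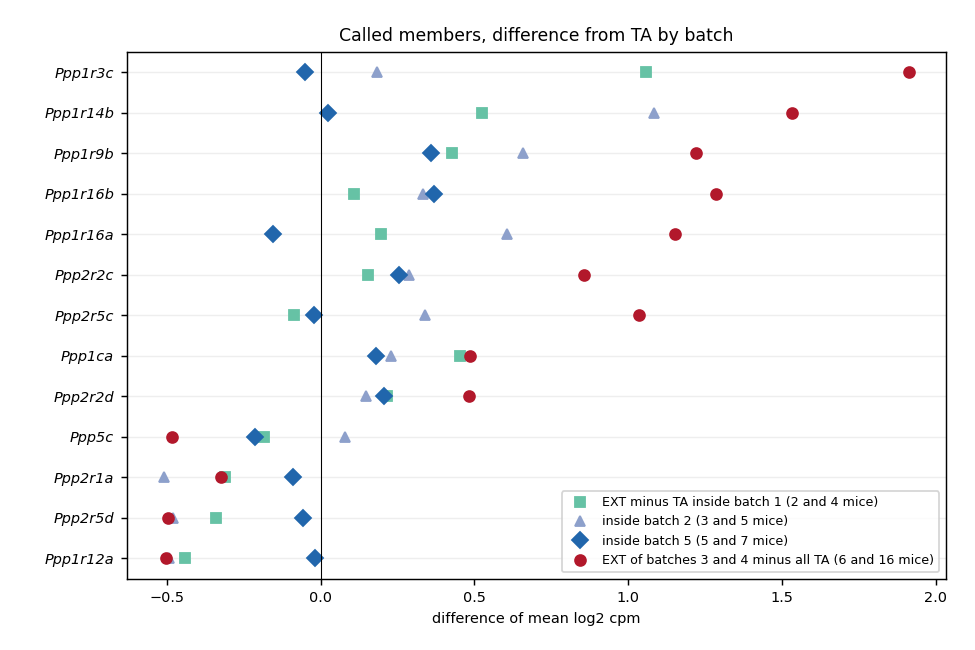
Difference in mean log2 cpm from TA (horizontal axis) for the 13 subunits that passed FDR correction. The fit that chose them used these same mice. Squares, triangles and diamonds are EXT minus TA inside batches 1, 2 and 5, and circles are the 6 EXT mice of batches 3 and 4 minus all 16 TA mice. Of the 13, 9 have one sign in batches 1, 2 and 5 (7 without mouse 21, which is included in the triangles), and the circle of Ppp2r5c (1.04) is far from its other points (-0.09, 0.34 and -0.02).

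The 13 were chosen by a fit that used the mice of batches 1, 2 and 5, so agreement of sign among them is not separate evidence. Of the 13 members, 9 had the same sign of EXT minus TA in batches 1, 2 and 5, and 23 of all 52 members did. Without mouse 21 these counts were 7 of 13 and 17 of 52, and the differences of Ppp2r2c (0.29 to -0.06), Ppp1r16b (0.33 to -0.23) and Ppp1r3c (0.18 to -0.59) in batch 2 turned from positive to negative. For all 13, the 6 mice of batches 3 and 4 differed from TA by more than the other EXT mice did. With log2 library size as a covariate, 0 of 52 passed by limma (0% of all genes), and 3 were under p = 0.05 before adjustment (5.47% of all genes): Ppp2r5d, Ppp1r14b and Ppp1r12a. Library size was lower in EXT (median 15412341 reads) than in TA (18015590). Without the mice of batches 3 and 4 and mouse 21, 0 of 52 passed (0% of all genes), and 6 were under p = 0.05 before adjustment (15.2% of all genes).

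The partners of these phosphatases that have other symbols were taken from lists drawn up by name. Of all genes, 10.4% were higher and 11% lower in EXT, which is 21.4% in either direction, and the counts below are read against these shares. Of 19 partners of PP2A and PP4 in the table, 0 were higher and 2 lower in EXT. The 2 were Anp32e, an inhibitor of PP2A (-0.44, FDR-adjusted p = 0.017), and Ppme1, the PP2A methylesterase (-0.59, FDR-adjusted p = 0.033). Of 17 calcineurin partners and targets, 1 was higher, the transcription factor Nfatc3 (0.60, FDR-adjusted p = 0.042), and 1 was lower, the endocytic GTPase Dnm1 (-0.65, FDR-adjusted p = 0.013). Among calcineurin inhibitors of the Rcan family, Rcan1 had 0.09, Rcan2 had -0.09 and Rcan3 had 0.14 (-0.19 with batches as categories). Of 10 other PP1 partners, Phactr3 was higher (0.47) and Wdr82 lower (-0.43).

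Of the 6 subunits of PKA, the kinase that these phosphatases oppose, 3 were lower, where 11% of all genes were: Prkar1b (-0.49), Prkar1a (-0.40) and Prkacb (-0.32). Of 15 metal-dependent phosphatases, 1 was higher, Ppm1b (0.35), where 10.4% of all genes were. Of 14 dual-specificity phosphatases, Dusp28, Dusp22 and Dusp12 were higher (0.50, 0.41 and 0.25) and Dusp1 was lower (-0.48), 4 in either direction beside 21.4% of all genes. Each of these passed FDR correction with batch as a number. With batches as categories, 0 genes of any of these lists passed by limma, and the unadjusted p of Dusp1 was then 0.00015 at a log2 fold change of -0.48. The medians over the lists were -0.06 for PP2A and PP4 partners, -0.09 for calcineurin partners and 0.08 for other PP1 partners. They were 0.06 for metal-dependent and 0.22 for dual-specificity phosphatases, and -0.26 for PKA subunits, where the median of all genes was 0.01.

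The comparison of FC with TA asks what fear conditioning itself altered. By limma, 0 of 52 members passed FDR correction (0% of all genes), and 7 were under p = 0.05 before adjustment, against 10.4% of all genes. With batches as categories these were 0 (0%) and 6 (16.8% of all genes). The member with the smallest p was Ppp1r3c, whose values are given above: 11 of 12 FC mice exceeded the TA median, and the log2 fold change was 0.70 ± 0.24 (unadjusted p = 0.0071, FDR-adjusted p = 0.36). FC minus TA was 1.12, 0.58 and 0.56 in batches 1, 2 and 5, and 0.73 in batch 1 without TA mouse 8. Without that mouse the log2 fold change was 0.57 (unadjusted p = 0.016). The summed astrocyte markers had a median of 1816 cpm in FC and 1179 in TA, and their part in this value was not tested.

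Ppp2r2d was next, at 0.18 ± 0.068 (unadjusted p = 0.014, FDR-adjusted p = 0.39), and 0.20 with batches as categories (unadjusted p = 0.0026). FC minus TA was 0.19, 0.13 and 0.25 in batches 1, 2 and 5. EXT and FC were compared with the same TA mice, so the values of Ppp1r3c and Ppp2r2d in both are not separate evidence. The others under p = 0.05 before adjustment were Ppp1r14c (0.30), Ppp1r14b (0.33) and the B56 subunit Ppp2r5a (0.19) with positive values, and Ppp1r37 (-0.44) and Ppp1r10 (-0.20) with negative ones.

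In EXT vs. FC, 0 of 52 members passed FDR correction by limma (0% of all genes) and 11 were under p = 0.05 before adjustment, against 19.3% of all genes. With batches as categories, 0 passed (0%) and 3 were under p = 0.05 before adjustment (4.19% of all genes). The smallest p was that of Ppp6r2 (0.39 ± 0.12, unadjusted p = 0.0021, FDR-adjusted p = 0.22), with medians of 4.49 log2 cpm in EXT and 4.20 in FC, and ranges that overlapped. Ppp2r2c had 0.50 (unadjusted p = 0.0028) and Ppp1r9b had 0.61 (unadjusted p = 0.0076). Ppp1r14c had -0.43 ± 0.15 (unadjusted p = 0.0075), with means of 4.79 log2 cpm in EXT and 5.26 in FC and ranges that overlapped. Its value with batches as categories was -0.45 (unadjusted p = 0.0057), the smallest p of the members in that fit. Among catalytic subunits, Ppp2ca had -0.18 (unadjusted p = 0.031), and -0.09 with batches as categories.

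The difference of EXT from TA was also compared between males and females with an interaction term. By limma, 0 of 52 members passed FDR correction (0% of all genes), and 0 were under p = 0.05 before adjustment, against 4.13% of all genes. With batches as categories these counts were also 0 (0%) and 0 (6.02% of all genes). The smallest p was that of Ppp2cb, where the effect in one sex differed from that in the other by 0.24 on the log2 scale (unadjusted p = 0.14). With 6 females a group these intervals are wide: that of Ppp1r15a ran from -0.26 to 1.03.

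The subunits of one enzyme were then compared mouse by mouse. For 8 pairs of partners, values were correlated over 39 mice after the mean of each batch and group was subtracted. Permutation tests were run inside those sets, with adjustment over the 8 pairs. Pairs of unrelated genes were not correlated, so whether such values are particular to partners was not tested. Ppp2ca and Ppp2r1a, the catalytic and scaffold subunits of the PP2A core, had Pearson's r = 0.62 (permutation p = 0.00080, adjusted p = 0.0043) and Spearman's rho = 0.54 (permutation p = 0.0010, adjusted p = 0.0055). Leaving out the 2 mice farthest from the median gave r = 0.46. Inside batches 1, 2 and 5, r was 0.57, 0.50 and 0.43. Ppp2cb, the other catalytic subunit, had r = -0.47 with the same scaffold (permutation p = 0.017, adjusted p = 0.034), and rho = -0.36 (permutation p = 0.041, adjusted p = 0.082). Its r was -0.26 without the 2 farthest mice and 0.27, -0.29 and -0.51 inside batches 1, 2 and 5, so that it rests on a few mice.

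Ppp3ca and Ppp3r1, which together form calcineurin, had r = 0.58 (permutation p = 0.0019, adjusted p = 0.0050) and rho = 0.58 (permutation p = 0.0014, adjusted p = 0.0055). Pearson's r was 0.52 without the 2 farthest mice, and 0.90, -0.13 and 0.44 inside batches 1, 2 and 5 (9, 8 and 17 mice). When only batch means were subtracted, r was 0.79, 0.35 and 0.62 inside those batches (11, 10 and 17 mice). Ppp1ca and its partner Ppp1r7 (Sds22) had r = 0.61 (permutation p = 0.0011, adjusted p = 0.0043) and rho = 0.56 (permutation p = 0.0024, adjusted p = 0.0064). Here r was 0.59 without the 2 farthest mice, and 0.10, 0.95 and 0.56 inside the batches. The other 4 pairs did not pass: Ppp3cb and Ppp3r1 had r = 0.04, Ppp4c and Ppp4r2 0.13, Ppp6c and Ppp6r3 0.27, and Ppp1cb and Ppp1r12a 0.17. Without the mice of batches 3 and 4, Ppp2ca and Ppp2r1a passed by both measures (r = 0.48, permutation p = 0.0036, adjusted p = 0.029; rho = 0.50, permutation p = 0.0051, adjusted p = 0.041). Ppp3ca and Ppp3r1 then passed by Spearman's rho (0.51, permutation p = 0.012, adjusted p = 0.046) and not by Pearson's r (0.49, permutation p = 0.022, adjusted p = 0.058).

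**Figure D5:**
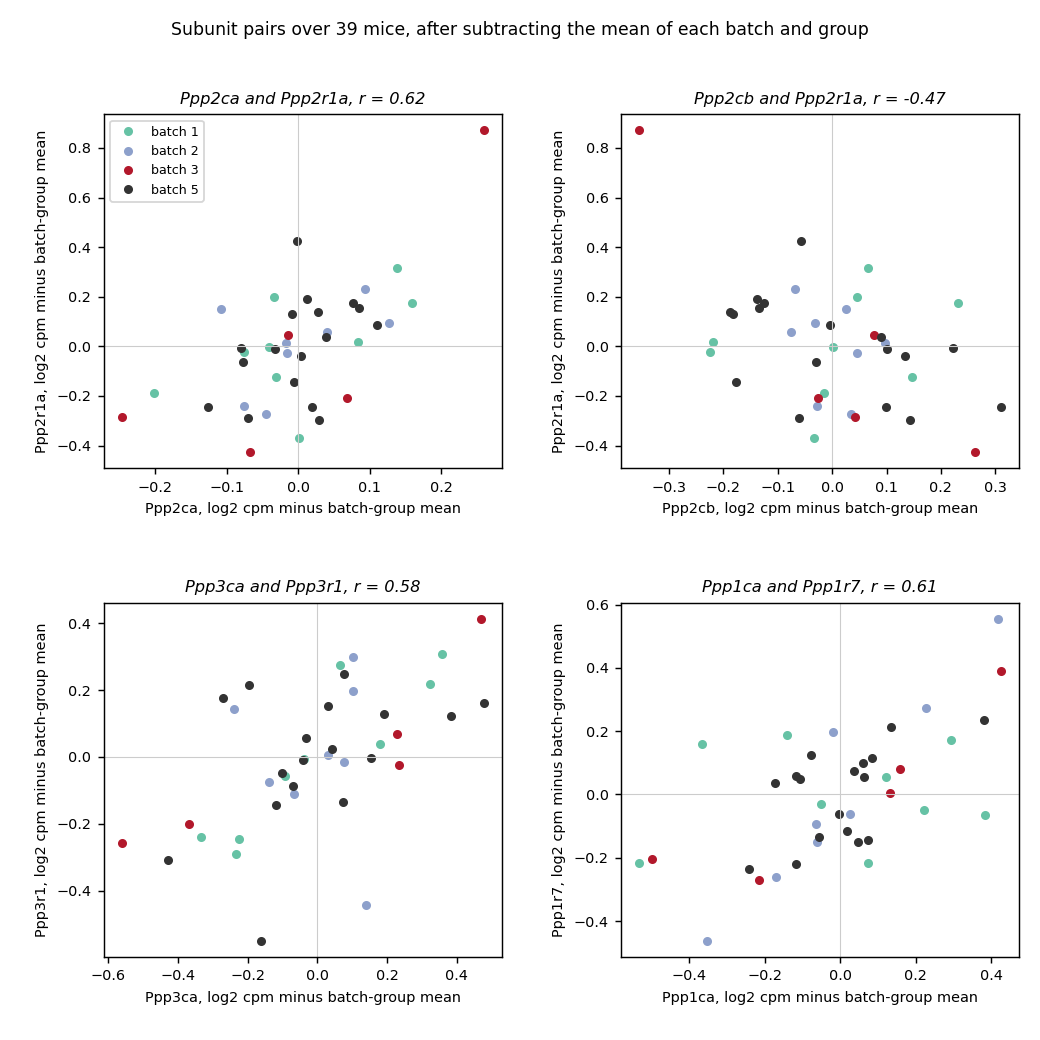
Log2 cpm of partner subunits against each other in 39 mice, after the mean of each batch and group was subtracted (both axes), with points coloured by batch. Ppp2ca and Ppp2r1a (r = 0.62) slope upwards in each of batches 1, 2 and 5, and in the panel of Ppp2cb and Ppp2r1a (r = -0.47) a lone mouse of batch 3 lies at the upper left.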

How the data were processed

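TRAP-seq was performed on 44 mice, each a sample. The authors used Trimmomatic 0.36 for trimming and STAR for mapping to GRCm38, filtered genes on cpm with edgeR and deposited log2 cpm from limma voom (reads plus 0.5 over the effective library size). All 44 deposited columns, headed by the numbers of the mice, hold log2 cpm and were used as log2. The strand setting of counting is not given in the sources used here. Whole reads were solved back for 360932 of 360932 values (tolerance 0.05).

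Groups, sex and batch came from the labels. Pairs of groups were compared with lmFit and eBayes of limma 3.58.1 (R 4.3.3), with batch number as a numeric covariate and sex, over 8203 genes. Two-sided p-values were adjusted by Benjamini-Hochberg at an FDR of 0.05. The coding of batch is not given in the sources used here, so batches as categories stand beside each count. Correlations of subunits used 100000 permutations. In simulated EXT vs. TA data, 159 of 200 genes with a log2 change of 0.5 were found (127 with batches as categories). Whether that recovery holds for the real mice, whose batches differ, was not tested. Named are the catalytic subunits and those with the smallest p in each direction and comparison; further members were named after their values were seen. Gene positions are those of mouse GENCODE release 21. Python 3.11.15, pandas 2.3.3, scipy 1.17.1 and matplotlib 3.10.9 were used. The members and lists were chosen with earlier results of these data known.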

Additional observations from a re-analysis of the deposited data

Results flagged for a closer look

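Within groups of 4 to 7 mice of one batch and condition, the members that differed between EXT and TA were searched for a mouse far from the rest. Of 91 such sets 5 held one, from 4 mice, and chance alone gives about 1 in 20.

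Ppp1r3c was 2.20 log2 cpm in TA mouse 8 of batch 1, where the other 3 TA mice had 3.65 to 3.82. Ppp1r16a was 7.07 in EXT mouse 24 of batch 5 (the others 6.63 to 6.75), and 6.26 in FC mouse 47 of batch 5 (the others 6.87 to 7.02). That FC mouse was also low in Ppp2r5c, at 6.58 (the others 6.91 to 7.03). Ppp2r5c was 7.05 in EXT mouse 23 of batch 3, where the others had 7.89 to 8.20. Mouse 23 also had the lowest mitochondrial and Malat1 level of the 6 EXT mice of batches 3 and 4, at 6732 cpm.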

How the results depend on the processing

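In EXT vs. TA, 13 members passed FDR correction, and 0 did so with batches as categories, without batches 3 and 4, with log2 library size as a covariate or with array weights. The count was 12 to 14 with no batch term, all 3 groups fitted together, log2 of cpm plus 1, a mean log2 value of at least 5 (12 of 40 members), median-centred or quantile-normalized samples, voom weights, or trended and robust eBayes. Alternatives chosen after seeing the data also gave 0: batches as categories with log2 library size, the mitochondrial and Malat1 level as a covariate, and no mice of batches 3 and 4 nor mouse 21. Where the count was 0, 1 to 14 members were under p = 0.05 before adjustment. Leaving out TA mouse 8, also chosen later, gave 11, without Ppp1r3c and Ppp1r12a. Ppp2r5c turned from 0.44 to -0.061 with batches as categories and library size and to -0.024 without those mice, and Ppp1r16a turned from 0.53 to -0.0043 with batches as categories and library size. The cause was not tested. Ppp4r1l-ps (0.33) passed with all 3 groups fitted together and Ppp2r5b (-0.23) with quantile-normalized samples, although neither did otherwise in EXT vs. TA. FC vs. TA, EXT vs. FC and the comparison between sexes gave 0 members under every alternative run.

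Without batches 3 and 4, Ppp3ca with Ppp3r1 had r = 0.49 (permutation p = 0.022, adjusted p = 0.058) and rho = 0.51 (permutation p = 0.012, adjusted p = 0.046), Ppp1ca with Ppp1r7 r = 0.54 (permutation p = 0.013, adjusted p = 0.053) and rho = 0.46 (permutation p = 0.022, adjusted p = 0.058), and Ppp2cb with Ppp2r1a r = -0.24. The last was -0.21 when only batch means were subtracted.

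No paired analysis was possible because the labels number individual mice and no mouse is in more than 1 group. Each member had 28 reads or more in every mouse. Library size was nonetheless lower in EXT than in TA, and 0 of 52 members passed with its log2 as a covariate. Whether depth caused this was not tested.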
